A study of Mus musculus with 4 samples.

Results

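The Wnt and Fgf ligand genes described here are 39 of the 22367 protein-coding genes that GENCODE M1 annotates on mm9. They were chosen by family membership and located by symbol: Wnt1, Wnt2, Wnt2b, Wnt3, Wnt3a, Wnt4, Wnt5a, Wnt5b, Wnt6, Wnt7a, Wnt7b, Wnt8a, Wnt8b, Wnt9a, Wnt9b, Wnt10a, Wnt10b, Wnt11 and Wnt16, and Fgf1 to Fgf12, Fgf14, Fgf15, Fgf17, Fgf18 and Fgf20 to Fgf23. The 19 Wnt and 20 Fgf genes were all found, on 16 chromosomes, none of them X or Y. The data came from biotin-mediated ChIP-seq, in which BirA, a bacterial ligase, adds biotin to a tagged protein inside the cell, so that the protein and its DNA can be pulled down on streptavidin beads. Mouse ESCs grown under standard conditions expressed BirA together with FB Wapal, a Wapal carrying a Flag and a biotin acceptor tag, in 2 independently derived clones. Cells with BirA and no tagged protein served as the negative control, and sheared genomic DNA served as input. Each FB Wapal library came from a single clone. Region lists hold no expression values, so the ESC label could not be checked against marker genes.

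Wnt proteins are secreted lipid-modified signals that act through Frizzled and Lrp receptors, in part by stabilising beta-catenin. Most Fgf proteins are secreted signals that act through receptor tyrosine kinases, and a small subfamily stays inside the cell. Both families pattern the gastrulating embryo, and in ESCs autocrine Fgf4 moves cells toward lineage commitment while Wnt signals favour self-renewal. Wapal releases the ring-shaped cohesin complex from DNA, and cohesin holds chromatin loops whose ends often lie at sites of the DNA-binding protein CTCF.

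The deposited FB Wapal list joins both clones and holds 8497 regions, and the BirA list holds 266. After the 174 FB Wapal regions that touched a BirA region were removed, 8323 Wapal-binding sites were left. That number differs slightly from the one the paper reports after its own subtraction of BirA regions. Each site has a position and a MACS score, which is −10 times the log10 of the p-value of its enrichment over input. Read counts are not part of the lists, so the depth behind a single site is not known. With the clones joined there is no spread between replicates, and the values below are descriptions given without a test. No BirA region and none of the removed regions lay within 100 kb of the transcription start site (TSS) of any of the 39 genes.

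The DNA under the sites closest to these genes was searched for the CTCF core motif, a stretch of 12 bases, because CTCF marks where cohesin is often held. The sequences below are the best match in the sites within 10 kb of Wnt2b, Wnt3, Wnt6, Wnt7b and Fgf2, and in the sites that bracket the Wnt9b/Wnt3 and the Fgf3/Fgf4/Fgf15 clusters. They are read 5′ to 3′ on the strand of the match in mm9, as 30 bases with the motif core in capitals. A match describes the letters and does not show that CTCF is bound.
Wnt2b, chr3:104771320-104771349, + strand, 1 mismatch: accgaggttCCTCCAGAGGGCttcttttgt
Wnt3 and Wnt9b, between the genes, chr11:103625237-103625266, + strand, 0 mismatches: ctttattctCCAGCAGGTGGCactctcatc
Wnt6, chr1:74809829-74809858, + strand, 1 mismatch: tgccatttgCCAGGAGATGGCgctatggcg
Wnt7b, chr15:85413662-85413691, - strand, 2 mismatches: tccctgtcgCCACGGGATGGCagcatccac
Fgf2, chr3:37201779-37201808, - strand, 0 mismatches: ccaagctctCCACTAGAGGGCgacgaggtc
Wnt9b/Wnt3, left of the pair, chr11:103537046-103537075, - strand, 1 mismatch: cacaccttgCCACTAGAGGGTgatatatct
Wnt9b/Wnt3, right of the pair, chr11:103772718-103772747, - strand, 1 mismatch: taagtttgaCCACAAGAGGGCagtagagta
Fgf3/Fgf4/Fgf15, left of the cluster, chr7:151976262-151976291, + strand, 2 mismatches: gccctctccCCCGCAGGTGTCgctgtcctc
Fgf3/Fgf4/Fgf15, right of the cluster, chr7:152123525-152123554, + strand, 2 mismatches: gcctgcacgTCGCTAGGGGGCgcacaccgc

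Across the 39 genes, Wapal-binding sites lay near many TSSs but over none. A site over the TSS was rare in general, at 181 of all protein-coding genes (0.809%). A site lay within 10 kb of the TSS of 7 genes (17.9%, 95% exact binomial interval 7.54 to 33.5), where the share of all protein-coding genes was 9.13%. A site lay within 50 kb of 19 genes (48.7%, interval 32.4 to 65.2) against 38.7% of all protein-coding genes. Within 100 kb the count was 29 (74.4%, interval 57.9 to 87.0) against 60.1%. At each distance the share of the ligand genes was above that of all genes, and the interval, which covers counting error only, still held the share of all genes. The interval treats the genes as independent, but 10 of them share a nearest site with a neighbour. The genes were also chosen with earlier results of these data known. The genes did not form a uniform set, since their distances spanned from 0.57 kb at Wnt7b to 1015 kb at Fgf14. Their median distance, from the TSS to the near edge of the nearest site, was 51.1 kb with quartiles of 16.1 and 112 kb, and that of all protein-coding genes was 72.6 kb with quartiles of 28.9 and 169 kb. Of the 39 genes, 26 lay closer to a site than the median protein-coding gene.

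**Figure D1:**
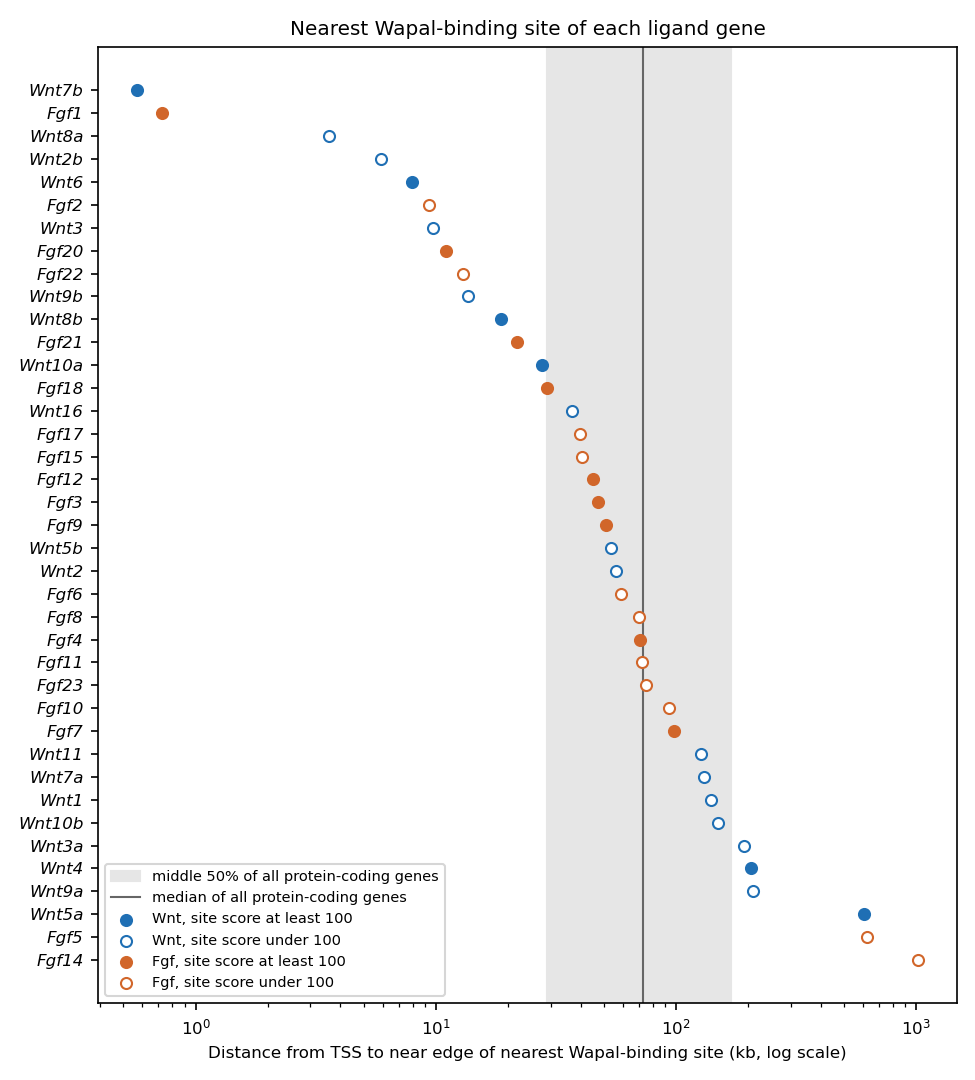
Distance from the TSS to the near edge of the nearest Wapal-binding site (kb, log scale) for each of the 39 genes, with Wnt genes in blue, Fgf genes in orange and filled points for sites with a MACS score of at least 100. The points run from 0.57 kb at Wnt7b to 1015 kb at Fgf14, and the grey band is the middle of all protein-coding genes, from 28.9 to 169 kb around a median of 72.6 kb.

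The Wnt and Fgf genes were also counted apart, a split made after the values were seen, and their difference was not tested. Among the Wnt genes, 5 of 19 (26.3%) had a site within 10 kb, 9 (47.4%) within 50 kb and 11 (57.9%) within 100 kb. Among the Fgf genes the counts were 2 of 20 (10%), 10 (50%) and 18 (90%). The shares of all protein-coding genes were 9.13, 38.7 and 60.1%. Within 10 kb the Wnt count was the higher, but the exact intervals overlapped, at 9.15 to 51.2% for Wnt and 1.23 to 31.7% for Fgf. All Fgf genes but Fgf5 and Fgf14 had a site within 100 kb. The exact intervals within 100 kb also overlapped, at 68.3 to 98.8% for the Fgf share and 33.5 to 79.7% for the Wnt share. Some of the genes are neighbours that see the same site, and joining those within 100 kb of each other left 32 loci. Of these, 15 of the 17 Fgf loci (88.2%) and 9 of the 15 Wnt loci (60%) had a site within 100 kb. With only sites scoring at least 100, the counts within 100 kb were 11 of 20 Fgf genes (55%) and 5 of 19 Wnt genes (26.3%), against 27.8% of all protein-coding genes. At that score the counts within 50 kb were 7 Fgf genes (35%) and 5 Wnt genes (26.3%), against 15.2%. Within 10 kb they were 1 Fgf gene (5%) and 2 Wnt genes (10.5%), against 3.09%. The X-linked Fgf13 and Fgf16 were outside the list, at 38.4 and 422 kb from their nearest sites, and with them the Fgf count within 100 kb was 19 of 22 (86.4%).

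**Figure D2:**
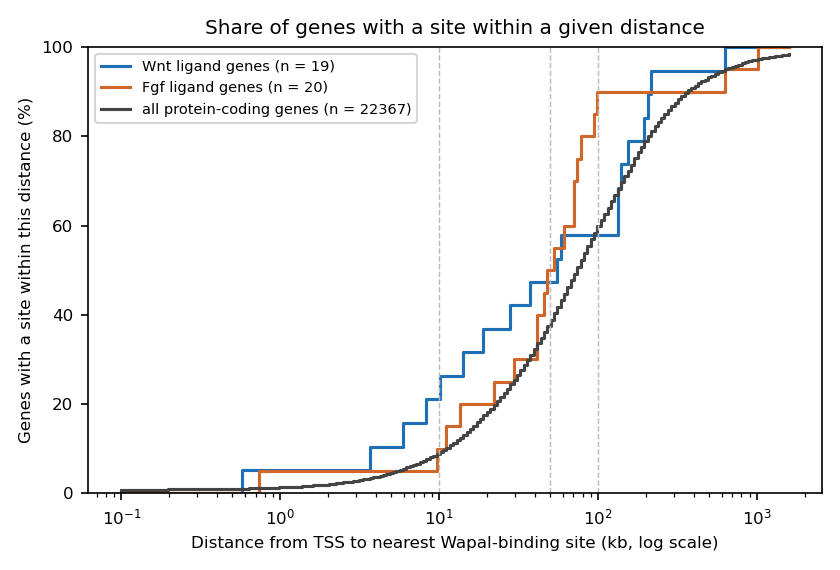
Share of genes (%) with a Wapal-binding site within a given distance of the TSS (kb, log scale), for 19 Wnt genes, 20 Fgf genes and 22367 protein-coding genes, with dashed lines at 10, 50 and 100 kb. The Wnt line is the highest at 10 kb (26.3%), and the Fgf line rises steeply before 100 kb, where it reaches 90%.

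For all 7 genes with a site within 10 kb, that nearest site lay upstream of the TSS. Among the 2042 protein-coding genes with a site that near, the nearest site was upstream for 55.4%, within the gene for 20.7%, past its end for 15.1% and over the TSS for 8.86%. With sites scoring at least 100, 3 of the 39 genes (Wnt6, Wnt7b and Fgf1) had a site within 10 kb. Of all 22367 protein-coding genes, 691 (3.09%) had one. Over the 39 genes, the nearest site was upstream for 23, within the gene for 3 (Wnt5b, Fgf10 and Fgf20) and downstream past the gene for 13. Upstream sites made up 59% of the ligand genes' nearest sites and 51% of those of all protein-coding genes. The gene was the closest protein-coding TSS to its own nearest site in 12 of 39 cases. The nearest sites were extragenic for 21 genes and inside a protein-coding gene for 18. Neither this split nor the count of 12 was set against all protein-coding genes.

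Among the Wnt genes of the Wnt1, Wnt6 and Wnt10 group, neighbours shared their nearest sites. Wnt6 (ENSMUSG00000033227.6), which is made in surface ectoderm, has its TSS on chromosome 1 at 74818466. Its nearest site, chr1:74809364-74810511, began 7.96 kb upstream with a score of 126 and carried the Wnt6 match printed above. A second site stood 11.5 kb upstream with a score of 97.0 and an exact CTCF core match on the opposite strand, so a close pair of sites lay in front of the gene. Wnt10a, a ligand needed for normal teeth and hair, is next to Wnt6 in the same direction, and the same 2 sites lay 27.6 and 31.1 kb upstream of it. Wnt1, a signal of the midbrain and hindbrain, and Wnt10b, a ligand of bone and fat precursors, stand back to back with TSSs 11.7 kb apart. The nearest site of both had a score of 76.8 and lay 139 kb from Wnt1 and 150 kb from Wnt10b, so neither had a site within 100 kb.

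In the Wnt2 group, Wnt2b had a site within 10 kb and Wnt2 did not. Wnt2b (ENSMUSG00000027840.4), which takes part in lung specification together with Wnt2, is on the minus strand of chromosome 3 with its TSS at 104764627. Its site chr3:104770526-104771515 was 5.90 kb upstream with a score of 94.4, followed upstream by a site of score 160 at 30.8 kb and one of score 124 at 96.8 kb. All 3 sites stood upstream, and the score was lowest in the one closest to the gene. For Wnt2 the only site within 100 kb had a score of 72.9 and lay 56.4 kb upstream in an intron of Asz1.

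Wnt3, required for the primitive streak, and Wnt9b, a kidney inducer, stand back to back on chromosome 11 with a site between them. Wnt3 (ENSMUSG00000000125.5) has its TSS at 103635464, and the site chr11:103624741-103625777 was 9.69 kb upstream of it and 13.6 kb upstream of Wnt9b, with a score of 96.0. It holds the exact core match printed above and lies upstream of both genes. Wnt3a, which maintains the posterior embryo, and Wnt9a, which acts in joints, are also back to back, with no site between them and TSSs 16.2 kb apart. They shared a nearest site of score 79.1, 192 kb from Wnt3a and 208 kb from Wnt9a.

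Wnt7b and Wnt8a had the nearest sites of all Wnt genes. Wnt7b (ENSMUSG00000022382.7), a ligand in lung and in brain vessel growth, has its TSS on the minus strand of chromosome 15 at 85412251. Its site, chr15:85412821-85414531, began 0.57 kb upstream with a score of 110, and at 1711 bp it was the widest of the nearest sites, whose median width was 829 bp. Its best core match had 2 mismatches and so falls outside the main motif count. Wnt8a (ENSMUSG00000012282.2), expressed in the early embryo, has its TSS on chromosome 18 at 34701967, and a site of score 54.3 lay 3.58 kb upstream. Wnt8b, a forebrain ligand, had 3 sites within 100 kb, at 18.7 kb upstream with a score of 135, 73.9 kb upstream with 56.3 and 88.8 kb downstream with 277. The last of these ranked 127 among the 8323 sites by score. Wnt7a, which patterns the dorsal limb, differed from Wnt7b in that its nearest site was 130 kb downstream, with a score of 89.2, or 83.4 kb from the nearest TSS of any of its transcripts.

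The remaining Wnt genes were mostly far from sites. Wnt5a (ENSMUSG00000021994.8), a ligand of beta-catenin-independent signalling and limb outgrowth, lay in a stretch of 1302 kb between sites that held the TSSs of 2 protein-coding genes. Its nearest site was 606 kb downstream, in an intron of Cacna2d3, with a score of 120. Wnt5b, its closest relative, held its nearest site in its own intron 53.6 kb from the TSS, with a score of 53.8. Measured from the nearest TSS of any of its transcripts, Wnt5b was 18.3 kb from a site. Wnt4, a ligand of kidney and ovary, was 204 kb from a site of score 252, the highest score of any nearest site of the 39 genes. Wnt11, which acts in the branching kidney, was 127 kb from a site of score 53.0. Wnt16, a bone ligand, was 36.9 kb from a site of score 61.3 in an intron of Fam3c. From the start of the gene record, Wnt16 alone among Wnt4, Wnt5a, Wnt5b, Wnt11 and Wnt16 had a site within 50 kb.

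Fgf1 and Fgf2, the founding members of the Fgf family, both had a site within 10 kb and another in an intron of their own. Fgf1 (ENSMUSG00000036585.9), which binds every Fgf receptor, has its TSS on the minus strand of chromosome 18 at 39089058, inside an intron of Arhgap26. Its nearest site began 0.722 kb upstream with a score of 129. A site 10.7 kb upstream had a score of 310, ranked 86 among all sites and the highest within 100 kb of any of the 39 genes. The third lay in the intron of Fgf1, 38.6 kb from the TSS, with a score of 181. The Fgf1 TSS was therefore flanked closely, with 39.3 kb between the sites on its left and right. Fgf2 (ENSMUSG00000037225.6), a mitogen used in stem cell culture, has its TSS on chromosome 3 at 37211441. Its site chr3:37201512-37202090 was 9.35 kb upstream with a score of 93.2, and a site of score 108 lay 28.4 kb from the TSS in the gene's own intron. Both Fgf2 sites held an exact core match.

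In the Fgf4 subfamily no gene had a site within 50 kb. Fgf4 (ENSMUSG00000050917.4), the ESC ligand, has its TSS on chromosome 7 at 152047291, and sites flanked it at 70.6 kb upstream with a score of 145 and at 75.7 kb downstream with a score of 71.7. Fgf5 (ENSMUSG00000029337.1), a marker of the epiblast once ESCs leave the naive state, has its TSS on chromosome 5 at 98683203. Its nearest site was 625 kb downstream in an intron of Bmp3, with a score of 90.5, and the next site on the other side was 701 kb away. The 2 best known Fgf ligands of ESC differentiation thus had no site within 50 kb, where 38.7% of all protein-coding genes had one. The distance of Fgf4 was close to the median of protein-coding genes, 72.6 kb. Fgf6, a muscle ligand, was 59.2 kb from a site of score 98.1 in an exon of D6Wsu163e.

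The Fgf7 subfamily, several of whose members signal from mesenchyme to epithelium, ranged from 13.0 to 97.7 kb. Fgf22 had 3 sites downstream, with scores of 68.3 at 13.0 kb, 164 at 56.4 kb and 156 at 79.5 kb. Fgf3, which is needed for the inner ear, shared the site of score 145 with Fgf4 and lay 47.3 kb from it. Fgf10, required for limb and lung, held a site in its own intron 93.2 kb from the TSS, with a score of 62.4, and none elsewhere within 100 kb. From the nearest TSS of any of its transcripts Fgf10 was 48.3 kb from a site. Fgf7, the keratinocyte growth factor, was 97.7 kb from a site of score 105 in an intron of Galk2. The scores of these nearest sites did not follow their distance.

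The Fgf8 and Fgf9 subfamilies lay between 11.0 and 70.1 kb from a site. Fgf8, a signal of gastrulation and of the midbrain-hindbrain boundary, was 70.1 kb from a site of score 68.2 in an intron of Kcnip2. Fgf17, its close relative, was 39.7 kb from a site of score 51.2 in an intron of Xpo7, with another of score 75.5 at 92.4 kb. Fgf18, a ligand of cartilage, had 1 site within 100 kb, 28.9 kb upstream with a score of 173. In this subfamily the nearest site was upstream in each case. Fgf9, which acts in testis and lung, was 51.1 kb from a site of score 172. Fgf20, an inner ear ligand, had its nearest site in its own intron 11.0 kb from the TSS with a score of 165, and sites of score 54.9 and 171 at 21.3 and 72.8 kb upstream in introns of Efha2.

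The intracellular Fgf genes, whose products bind sodium channels rather than being secreted, were spread widely. Fgf12 was 45.2 kb from a site of score 105, with no site on its other side for 976 kb. Fgf14 (ENSMUSG00000025551.7), a gene of 699 kb near the end of chromosome 14, was the farthest of all at 1015 kb from a site of score 67.0. That site was the last on the chromosome, and the Fgf14 TSS lay 119 kb from the chromosome's end. An internal TSS of Fgf14 was 531 kb from it. Fgf11 was 72.2 kb from a site of score 75.3.

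Each endocrine Fgf gene had its nearest site downstream. Fgf21 (ENSMUSG00000030827.4), a metabolic hormone of liver, has its TSS on the minus strand of chromosome 7 at 52870860. A site of score 179 lay 21.7 kb downstream, the third highest best score within 100 kb after Fgf1 and Wnt8b, and another of score 50.5 lay at 59.2 kb. Fgf15, which represses bile acid synthesis, was 40.6 kb from a site of score 71.7 in an intron of the cyclin gene Ccnd1. Fgf23, which controls phosphate, was 74.6 kb from a site of score 95.3 in an intron of the cyclin gene Ccnd2. Both cyclin sites were far closer to the cyclin TSS than to the Fgf TSS, at 1396 bp for Ccnd1 and 2690 bp for Ccnd2.

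**Figure D3:**
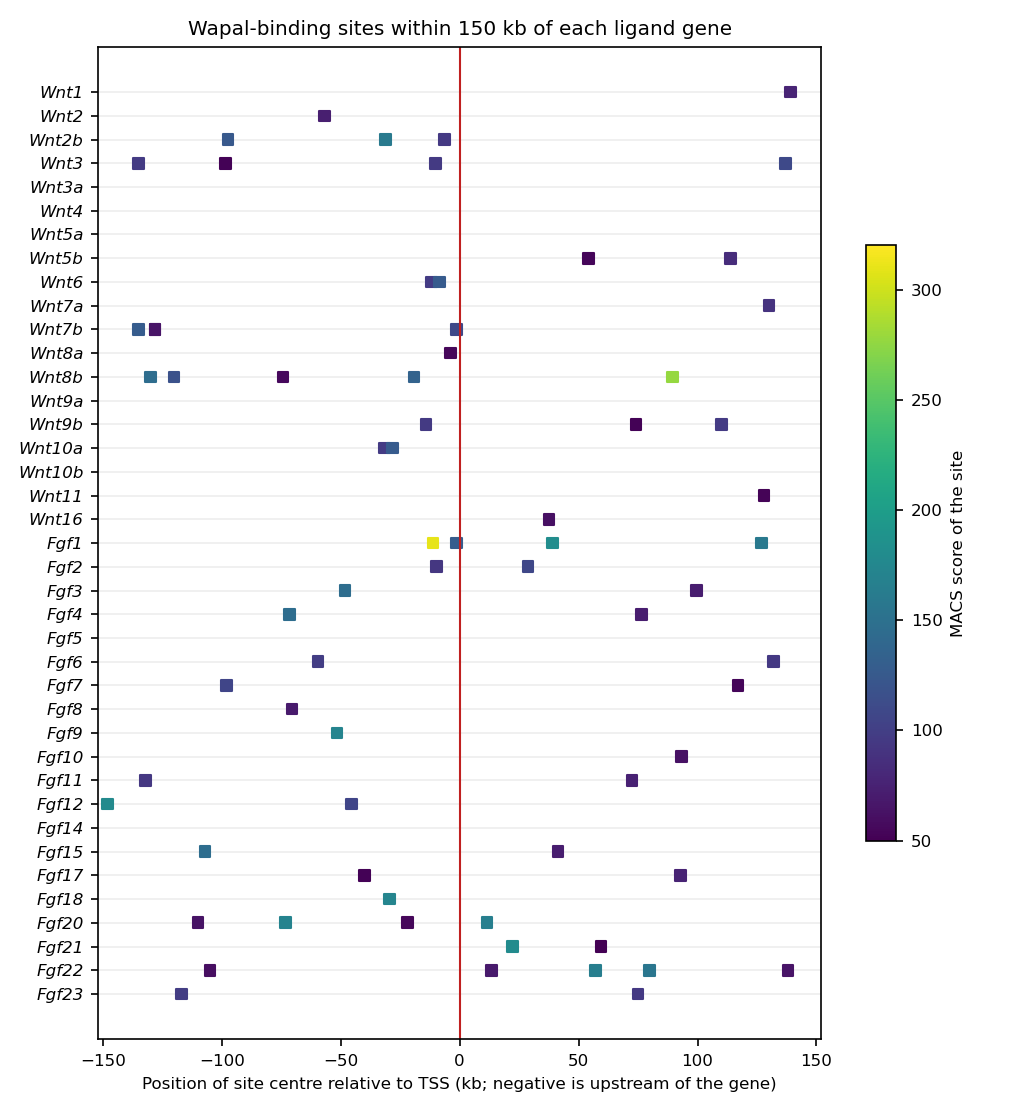
Centres of Wapal-binding sites within 150 kb of each TSS (kb, negative values upstream of the gene), with 1 row per gene and the colour giving the MACS score. The brightest site is that of score 310 upstream of Fgf1, rows such as Wnt5a, Fgf5 and Fgf14 are empty, and the squares drawn closest to the TSS line belong to Wnt7b and Fgf1, at 0.57 and 0.722 kb upstream by their near edges.

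Counting every site within 100 kb, 10 of the 39 genes had none and 14 had 2 or more. The count of 14 was not set against all protein-coding genes. Neighbours share sites, so the 48 pairings of a gene with a site stood for 41 distinct sites. The 39 genes had on average 1.23 sites within 100 kb, and all protein-coding genes had 0.99. The stretch between the sites to the left and right of the TSS had a median of 226 kb for the 38 ligand genes with a site on both sides and 366 kb for protein-coding genes. That stretch held a median of 4 protein-coding TSSs, against 6. The number of other protein-coding TSSs within 100 kb had a median of 3 in both sets. For comparison with other developmental families, 11 of 18 Sox genes (61.1%) and 29 of 43 Forkhead genes (67.4%) had a site within 100 kb, with median distances of 68.0 and 56.5 kb. These differences were not tested.

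Linked ligand genes were compared for sites between them. Of the 8 pairs of ligand genes with TSSs within 100 kb of each other, 1 had a site between its TSSs, namely Wnt9b and Wnt3. Among 23467 pairs of protein-coding genes whose TSSs were as far apart, from 11.7 to 58.4 kb, 16% had a site between, and 3 of the 8 ligand pairs come from the Fgf3, Fgf4 and Fgf15 cluster. No site stood between Wnt6 and Wnt10a, Wnt1 and Wnt10b, Wnt3a and Wnt9a, Fgf6 and Fgf23, or any pair among Fgf3, Fgf4 and Fgf15. Fgf3, Fgf4 and Fgf15 lay together in 1 stretch of 146 kb between a site of score 145 and a site of score 71.7. The best core matches of both sites, printed above, have 2 mismatches. They fall outside the main motif count, so no direction was called for them. Fgf6 and Fgf23 likewise lay in 1 stretch of 191 kb between sites of score 98.1 and 95.3. The sites bracketing Wnt9b and Wnt3 had scores of 51.8 on the left and 110 on the right. Wnt9b and Wnt3 thereby fell in separate adjoining stretches of 87.3 and 146 kb.

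**Figure D4:**
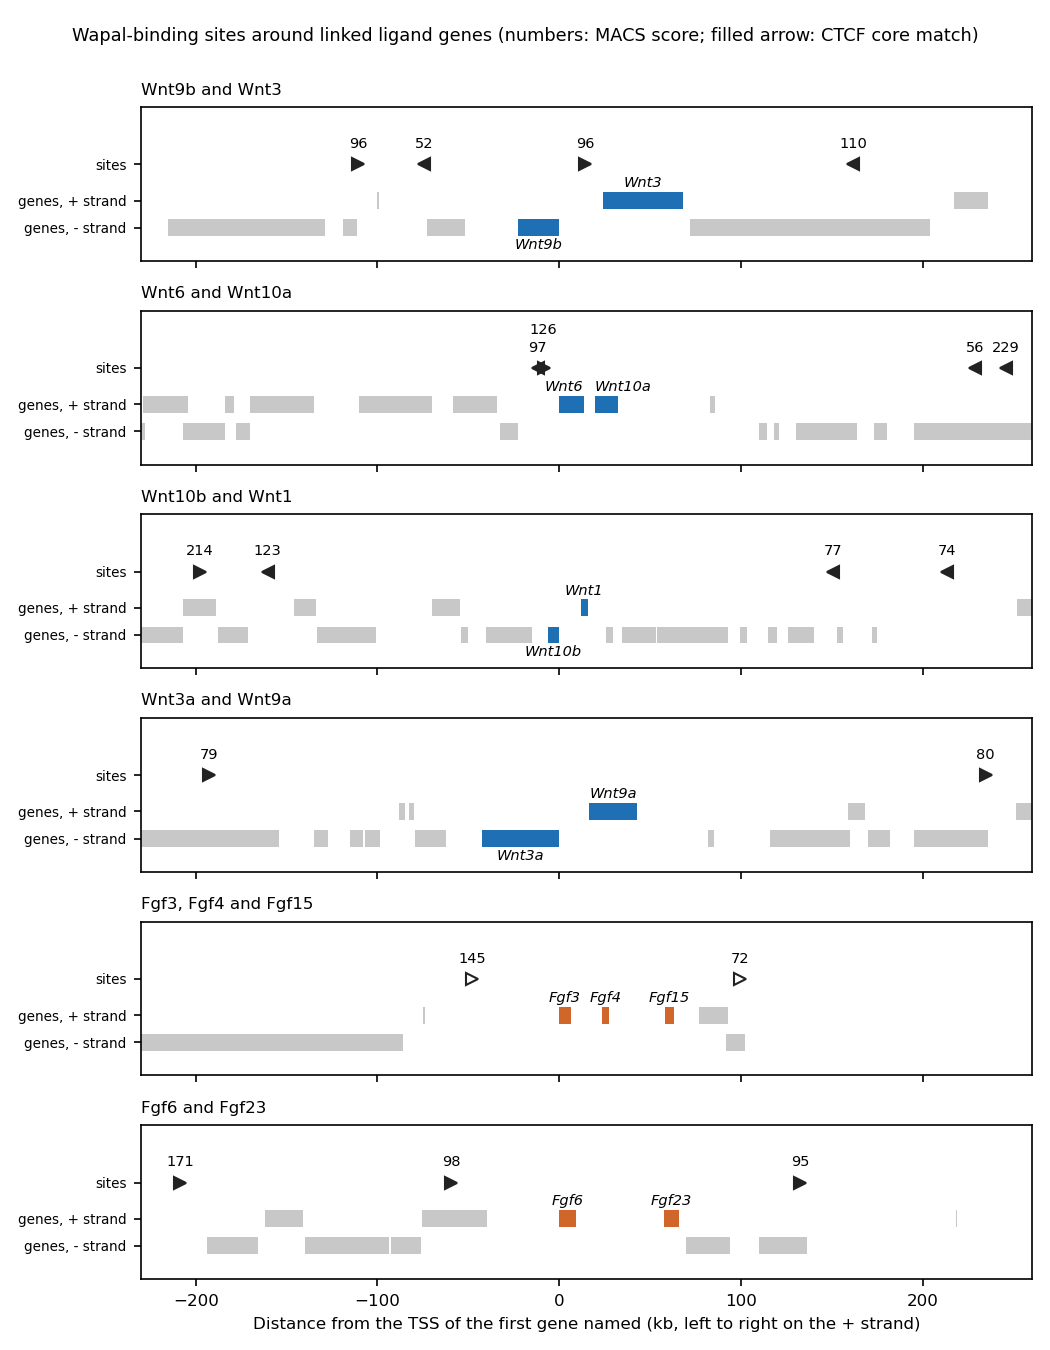
Wapal-binding sites (arrows, with the MACS score above) around 6 groups of linked genes, with distances in kb from the TSS of the first gene named, member genes in colour and other protein-coding genes in grey. Arrows point along the strand of the best CTCF core match and are filled at up to 1 mismatch, and a site stands between the TSSs only for Wnt9b and Wnt3, with a score of 96.0.

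The 39 genes had 34 distinct nearest sites, since 5 sites were nearest to a pair of genes each. The 34 sites had a median score of 93.8, from 51.2 to 252, and the other 8289 sites had a median of 81.4. A score of at least 100 was held by 13 of the 34 (38.2%) and by 34.6% of the others. With at most 1 mismatch, 27 of the 34 sites (79.4%, exact interval 62.1 to 91.3) held the CTCF core motif, searched on both strands. The motif was also in 74.5% of the other sites. Stretches as wide as the sites, taken 5 kb from each, held it in 9.85% of cases. The best match lay a median of 39.5 bp from the centre of the site for the nearest sites of the ligand genes and 41.5 bp for the others. In motif content and motif position the sites near Wnt and Fgf genes thus differed little from the other sites.

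The direction of the core match on the sites to the left and right of each TSS was compared next. Matches with at most 1 mismatch on both sides were found for 27 of the 39 genes. They pointed toward the gene from both sides for 7 (25.9%), ran in the same direction for 14 (51.9%) and pointed away for 6 (22.2%). Among 12455 protein-coding genes the shares were 26.1, 46.5 and 27.5%. The genes flanked by matches that faced each other were Wnt3, Wnt5a, Wnt6, Wnt8a, Wnt10a, Fgf1 and Fgf12. Neighbouring genes can share their flanking sites, and the 7, 14 and 6 genes stood for 6, 11 and 6 separate stretches.

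Of 70 genes for receptors, inhibitors, agonists and downstream components, 11 (15.7%) had a site within 10 kb, 32 (45.7%) within 50 kb and 42 (60%) within 100 kb. The shares of all protein-coding genes were 9.13, 38.7 and 60.1%, so the share within 100 kb did not differ from that of all genes. The Wnt receptor genes had a site within 50 kb in 9 of 15 cases, and the 2 within 10 kb, Fzd3 at 6.64 kb and Fzd8 at 5.21 kb, are named after their values were seen. Among secreted Wnt inhibitors, 8 of 11 had a site within 50 kb, and the median distance of 23.9 kb was the shortest of the lists. Notum, an enzyme that removes the lipid from Wnt proteins, held a site of score 59.2 within the gene, 1.48 kb from its TSS. R-spondins, which amplify Wnt signals, and their receptors had a site within 50 kb in 5 of 9 cases. Of the Wnt processing genes, Porcn, the enzyme that adds the lipid, had a site of score 60.4 at 0.51 kb upstream of its TSS. Porcn is on the X chromosome, unlike the 39 ligand genes.

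Fgf receptors and genes that act downstream of the receptors were counted in the same way. Among Fgf receptors and co-receptors, 1 of 7 had a site within 50 kb. Among genes of the beta-catenin pathway, 3 of 14 had a site within 50 kb, and the median distance was 124 kb. Feedback inhibitors and effectors of Fgf signalling had one in 5 of 12 cases. The exact intervals of these short lists within 50 kb overlapped each other. They held the 38.7% of all protein-coding genes except for the secreted Wnt inhibitors, whose interval ran from 39 to 94%. That interval began just above 38.7% and held the 39.7% of autosomal protein-coding genes. The lists were chosen with earlier results of these data known, and were tested neither against each other nor against all genes.

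**Figure D5:**
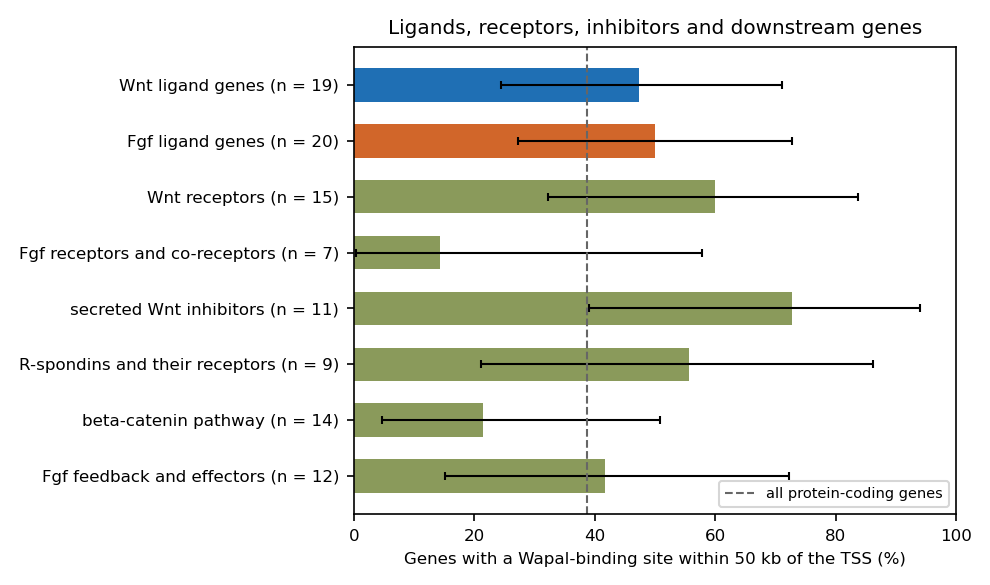
Share of genes (%) with a Wapal-binding site within 50 kb of the TSS in the ligand genes and in lists of receptors, inhibitors and downstream genes, with exact 95% binomial intervals that cover counting error only. The bars range from 14.3% for Fgf receptors and co-receptors to 72.7% for secreted Wnt inhibitors around the dashed line for all protein-coding genes at 38.7%.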

How the data were processed

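Libraries of 2 FB Wapal clones, 1 BirA line and 1 input were sequenced. Per the methods and the submitters' processing notes, the authors used Bowtie with the mm9 genome, retained reads with a single alignment, and ran MACS 1.4.2 against input with a p of 1e-05, its default. The value deposited with each region is the MACS score of the authors, which is not normalized between lists and was used only within the Wapal list. The rule by which the regions of both clones were joined is not given in the sources used here.

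Regions sharing at least 1 bp with a BirA region were removed. Genes came from GENCODE M1 on NCBIM37, the assembly of mm9. The TSS was the 5′ end of the gene record, and distances ran to the near edge of a site. For Fgfr1, which has more than 1 coding record, the longest was used. Intervals are 95% exact binomial. The members and gene lists were chosen with earlier results of these data known. Every member is given by its distance and score. Described in full were members with a site within 10 kb, the 3 with the highest-scoring site within 100 kb, the 3 farthest from a site, neighbours within 100 kb of each other, and Fgf4 and Fgf5. Pathway genes were named when a site lay within 2 kb, and Fzd3 and Fzd8 were added after their values were seen. No test was run over the members. The annotation under 1 site is not reported here. Alternatives covered the BirA removal, a score of at least 100, the site centre, the TSS of any transcript, autosomes alone and the motif mismatches. Counts by locus, by family, by stretch between sites and over protein-coding pairs were added after the data were seen. The search functions were tested on simulated data, where 200 of 200 planted motifs and 200 of 200 planted distances were found. Python 3.11.15, numpy 2.4.6, scipy 1.17.1 and matplotlib 3.10.9 were used.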

Additional observations from a re-analysis of the deposited data

How the results depend on the processing

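Of 35 values recomputed under another setting, 20 stayed close to the main value and 15 moved. With sites scoring at least 100, the members with a site within 10, 50 and 100 kb fell to 3, 12 and 16, their median distance was 161 kb, and the shares of protein-coding genes were 3.09, 15.2 and 27.8%. With the nearest TSS of any transcript, those shares were 12.3, 42.5 and 62.3%, and 8, 21 and 30 members had a site, Fgf20 entering the first count at 9.46 kb. Measured to the site centre, the share within 10 kb was 8.72%, and 6 members had a site. Autosomes alone gave 39.7% within 50 kb and 61.5% within 100 kb. The share of nearest sites with the CTCF core was 29.4% with exact matches and 100% with up to 2 mismatches. Among the other sites these shares were close to that, at 28.3 and 96.5%. These changes follow from the settings, which add or remove sites, start sites, genes or matches. Leaving the BirA regions in, or removing regions within 1 kb of one, left the 3 counts and the median distance of members as they were. These values could not change, because no BirA region and no removed region lay within 100 kb of a member. They are among the 20 values that stayed close. No paired analysis was possible because both clones are in 1 list and no test was run, and for the same reason no clone could be left out. The lists hold no counts, so depth sets an unknown limit on which sites were called.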
